A study of Mus musculus with 8 samples.

Results

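The 46 genes described here build the contacts between mammary epithelial cells and give these cells their top and bottom. They were chosen by name, as genes of tight junctions, adherens junctions, desmosomes and polarity complexes, and each was read from the probe set with its gene symbol, the set with the highest mean where a gene had several. Of the 46, 45 were measured, among 19505 genes in all. Pals1 was read under its older symbol Mpp5, and Ctnnb1 was not analysed here.

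The samples were luminal cells, the inner epithelial layer of the mammary gland, sorted from fresh tissue of mice on day 15 of pregnancy. There were 4 samples of control cells and 4 labelled a3a6KO, a knockout of the integrin chains alpha 3 and alpha 6, whose genes are Itga3 and Itga6. These chains form receptors for laminin in the basement membrane. The titles of the knockout samples also carry the word Ctrl, so the groups stand as their cell subtype labels give them. The Cre driver, the deleted parts of each gene, the strain and the age of the mice, and whether animals were pooled, are not stated in the sources read here.

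Tight junctions seal the space between neighbouring epithelial cells: claudins form the seal, and scaffold proteins such as ZO-1 tie it to actin. In pregnancy these seals are leaky, and they close around the onset of lactation, when milk must be held in the lumen. Adherens junctions join cells through cadherins and catenins, and desmosomes anchor the keratin filaments of neighbouring cells to each other. The Par, Crumbs and Scribble complexes hold apart the apical membrane, which faces the lumen, and the basolateral membrane, which faces neighbours and laminin.

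Values are log2 values, so a difference of 1 is 2-fold, and levels of different probe sets are not compared. A gene is called above background on an array where it exceeded the 95th percentile of that array's 5222 negative control sets, which lie at 6.38 to 6.9. Between 2244 and 3229 genes did so on single arrays, and any pair of arrays of 1 group correlated at 0.93 to 0.945 over genes, against 0.924 to 0.946 for pairs across groups. Itga6 values were 8.83, 8.73, 9.14 and 8.80 in control and 5.95, 3.65, 8.21 and 7.85 in a3a6KO, so 2 knockout samples kept a level above background. Itga3 values were 6.72, 6.30, 5.37 and 7.27 in control and 5.11, 4.34, 5.55 and 5.60 in a3a6KO, and these overlapped. Itga3 exceeded background on control 4 only, so its values lay near or below background. The position of these probes in the genes is unknown, so they do not show how complete the deletion was. Of the measured luminal markers, 9 of 11 were above background on all 8 arrays, Krt8 and Krt18 among them. Of the basal markers, 10 of 15 were above background on at least 1 array, Krt14 and Acta2 on all 8.

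Between a3a6KO and control, 0 of the 45 junction and polarity genes passed the threshold of an adjusted p of 0.05 in limma, and 0% of all genes did. At an unadjusted p of 0.05, 1 of 45 did (Llgl2, lower), against 5.13% of all genes, of which 2.73% were lower and 2.4% higher. Groups that did not overlap were found in 0 of 45 genes and in 2.94% of all genes, and for 45 genes these shares are close. A mean difference of at least 1.5-fold was seen in 6 of 45, against 7.79% of all genes. The mean was higher in a3a6KO for 24 of 45 (49.9% of all genes), and the median difference was 0.07, beside -0.0025 over all genes. Adjusted limma p-values of the 45 genes ran from 0.944 to 0.985. The 14 members above background on every array, a state that 8.25% of all genes shared, had a median difference of 0.15 and differences from -0.24 to 0.52.

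**Figure D1:**
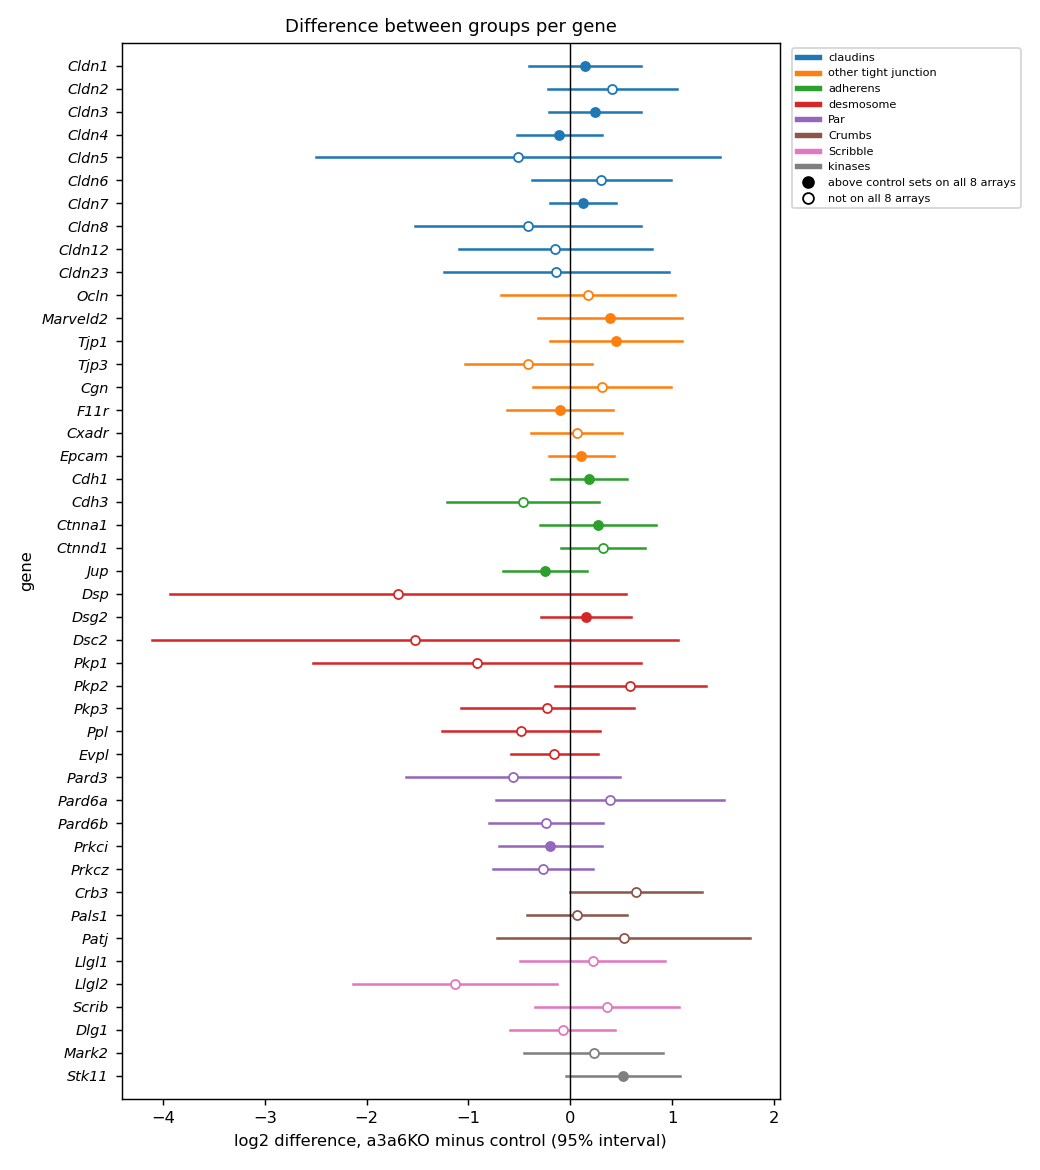
The log2 difference of a3a6KO minus control is plotted for each of the 45 genes with its 95% interval from limma (4 samples a group), coloured by role. Filled points are genes above background on all 8 arrays. All intervals but that of Llgl2 include 0, and the widest belong to Dsc2, Dsp and Cldn5.

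Among the claudins, the proteins of the seal, 5 of 10 had a higher and 5 a lower mean in a3a6KO, with a median difference of 0.01. Cldn7, a claudin of many simple epithelia, was at 9.71, 9.71, 9.69 and 9.73 in control and at 9.94, 9.68, 9.96 and 9.77 in a3a6KO. The control values lay within 0.04 of each other, and the knockout values overlapped them, with a difference of 0.13 (95% interval -0.20 to 0.45). Cldn4 was at 10.63, 10.31, 10.53 and 10.43 in control and at 10.58, 10.61, 9.99 and 10.29 in a3a6KO. The lowest sample was a3a6KO 3, and the difference of -0.11 (-0.53 to 0.31) was 0.02 without it. Cldn3, like Cldn4 a claudin of tight epithelia, was at 8.68, 8.56, 8.31 and 8.77 in control and 8.82, 9.11, 8.38 and 8.98 in a3a6KO. Its groups overlapped, with a difference of 0.24 (-0.21 to 0.70). Cldn1, needed for the skin barrier, was at 9.21, 8.58, 8.05 and 8.49 in control and 8.72, 8.84, 8.88 and 8.47 in a3a6KO, so both ends of its range were control samples. These 4 claudins were the members of the family above background on all 8 arrays.

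The other 6 claudins lay at or below background on most arrays. Cldn8, a barrier claudin, was at 5.49, 6.61, 5.84 and 6.19 in control and 5.45, 4.54, 7.12 and 5.36 in a3a6KO, above background on a3a6KO 3 only. Cldn23 exceeded background on 3 knockout arrays and on 0 control arrays, yet its means differed by -0.14 (95% interval -1.24 to 0.97) because a3a6KO 4 was at 4.64. Without that sample the difference was 0.43. Cldn2, which forms pores for cations, Cldn6, known from embryonic epithelia, and Cldn12 exceeded background on 0 arrays. Their differences were 0.42, 0.31 and -0.14.

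Cldn5, the main claudin of blood vessel endothelium, varied more between samples than any other claudin measured here. It was at 4.02, 3.60, 3.87 and 7.06 in control and 2.97, 3.05, 6.01 and 4.46 in a3a6KO. Control 4 and a3a6KO 3 were its highest samples, one in each group, and the difference was -0.51 (95% interval -2.50 to 1.47), or 0.29 without control 4. Of 13 endothelial markers, 7 had their 2 highest values in those 2 samples, Pecam1 and Cdh5 among them, and 6 did not. Emcn was highest in a3a6KO 1, Robo4 and Sox17 in a3a6KO 2 and Tie1 in control 2. Kdr was highest in control 4 with a3a6KO 4 next. Erg was highest in a3a6KO 3, with control 3 (5.63) just above control 4 (5.62). How often a given pair of samples was highest over all genes was not counted, here or for the lists below. Pecam1 reached 7.14 in control 4 and 7.19 in a3a6KO 3, where the other 6 samples had 4.57 to 5.48. Cdh5, the cadherin of endothelial junctions, reached 8.31 and 7.70 there, with 6.44 in control 3 and 4.36 to 5.76 in the remaining samples. The mean deviation of the 13 markers ran from -0.56 to 1.12 in control and from -0.59 to 0.93 in a3a6KO, and 7 of the 13, Tek and Kdr among them, exceeded background on 0 arrays. The part of these cells in the values of Cldn5 was not tested. In bulk samples, fewer cells of a type and less RNA per cell cannot be told apart.

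**Figure D2:**
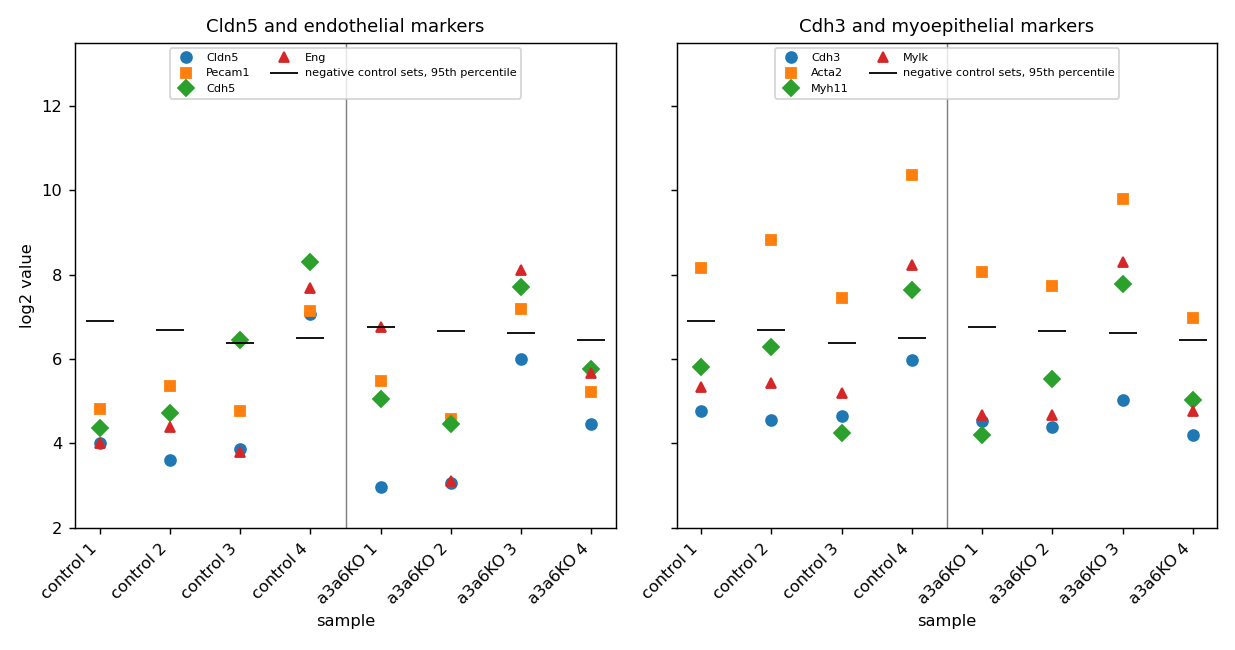
Log2 values by sample of Cldn5 beside endothelial markers (left) and of Cdh3 beside markers of contractile myoepithelial cells (right). Black dashes mark the 95th percentile of the negative control sets of each array. The markers shown in both panels are highest in control 4 and a3a6KO 3. All of them come from the 7 of 13 endothelial and 7 of 15 basal markers with that order, which the other markers did not share.

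Other tight junction genes had higher means in a3a6KO in 6 of 8 cases, with a median difference of 0.14, and 0 of the 8 passed. Epcam, an adhesion molecule that binds and stabilizes claudins, had a narrow range: 10.37, 10.18, 10.27 and 10.17 in control and 10.26, 10.44, 10.33 and 10.40 in a3a6KO. The groups overlapped, and the 95% interval of the difference of 0.11 ran from -0.21 to 0.43, which is 0.863- to 1.35-fold. Tjp1, which encodes the scaffold ZO-1, was at 7.72, 7.08, 6.98 and 7.26 in control and 8.32, 7.67, 7.01 and 7.84 in a3a6KO. All controls lay below a3a6KO 1 and 4, while a3a6KO 3 lay above control 3 alone, a difference of 0.45 (-0.20 to 1.10) with an exact two-sided permutation p of 0.257. Tjp3, which encodes the related scaffold ZO-3, had the opposite sign: 7.29, 7.33, 6.83 and 7.03 in control and 6.19, 7.47, 6.73 and 6.45 in a3a6KO, a difference of -0.41 (-1.03 to 0.21). Its highest value, like its lowest, was a knockout sample.

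Ocln, whose product occludin spans the membrane at the seal, was at 6.61, 7.24, 7.01 and 6.19 in control and 7.60, 7.57, 6.28 and 6.29 in a3a6KO. All controls lay below a3a6KO 1 and 2, and all but control 4 above a3a6KO 3 and 4. Marveld2, which encodes tricellulin, the occludin relative at the corners where cells meet, differed by 0.39 (95% interval -0.32 to 1.10), and the actin linker Cgn by 0.31 (-0.37 to 0.99). The adhesion molecule genes F11r (JAM-A) and Cxadr differed by -0.10 and 0.06, and Cxadr exceeded background on 0 arrays.

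Of the 5 adherens junction genes measured, 3 had higher and 2 lower means in a3a6KO, with a median difference of 0.18, and 0 passed. Their pooled SDs ran from 0.168 for Cdh1 to 0.378 for Ctnna1 and 0.535 for Cdh3. Cdh1, which encodes E-cadherin, the cadherin of luminal cells, was at 9.04, 9.06, 9.24 and 9.01 in control and 9.13, 9.55, 9.08 and 9.33 in a3a6KO. The difference of 0.18 had a 95% interval from -0.19 to 0.56. Jup, which encodes plakoglobin, a catenin of adherens junctions and desmosomes, was at 9.30, 9.81, 9.97 and 9.55 in control and 9.45, 9.48, 9.46 and 9.26 in a3a6KO. Control 2 and 3 were its highest samples, and the difference was -0.24 (-0.66 to 0.17). Ctnna1, the link from cadherin to actin, was at 8.68, 8.48, 7.79 and 8.66 in control and 8.30, 9.11, 8.67 and 8.61 in a3a6KO. Ctnnd1, whose product p120 keeps cadherins at the membrane, had the smallest p of these genes: 6.31, 6.38, 6.57 and 6.16 in control and 6.78, 6.29, 6.80 and 6.84 in a3a6KO. All controls lay below a3a6KO 1, 3 and 4, and 3 of them above a3a6KO 2, a difference of 0.32 (-0.09 to 0.74, exact permutation p = 0.114).

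Cdh3, which encodes P-cadherin, the cadherin of basal cells, was at 4.77, 4.56, 4.64 and 5.98 in control and 4.52, 4.38, 5.02 and 4.19 in a3a6KO, below background throughout. Control 4 was its highest sample and a3a6KO 3 the next, and the means differed by -0.46 (95% interval -1.21 to 0.29). Without control 4 the difference was -0.13. Of 15 basal markers, 7 had their 2 highest values in the same 2 samples. Among them were the contractile genes Mylk and Myh11 and the basal keratin gene Krt17, which lay below background on every array. Mylk reached 8.22 in control 4 and 8.30 in a3a6KO 3, against 4.67 to 5.43 elsewhere. The other 8 markers did not share this order. Of these, the basal keratin genes Krt5 and Krt14 were highest in control 2 and 3. Trp63, which encodes the basal transcription factor p63, was highest in control 2. The contractile gene Myl9 was highest in control 4 (8.62), with control 2 (7.79) above a3a6KO 3 (7.67). The means of 14 of the 15 were lower in a3a6KO, with a median difference of -0.44, and 0 passed. Without control 4 the count was 7 of 15 and the median 0.11. An unadjusted limma p under 0.05, which 5.13% of all genes had, was found for 4 of the 15, all lower: Krt5 (-2.54), Trp63 (-2.43), Krt14 (-1.60) and Myl9 (-1.06). Trp63 was at 5.24, 8.37, 6.12 and 6.45 in control and 4.39, 3.18, 5.12 and 3.77 in a3a6KO, so that its groups did not overlap. The mean deviation of the 15 markers ran from -0.35 to 1.22 in control and from -0.81 to 0.77 in a3a6KO, and 5 of the 15 exceeded background on 0 arrays. The part of basal cells in the values of Cdh3 was not tested.

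**Figure D3:**
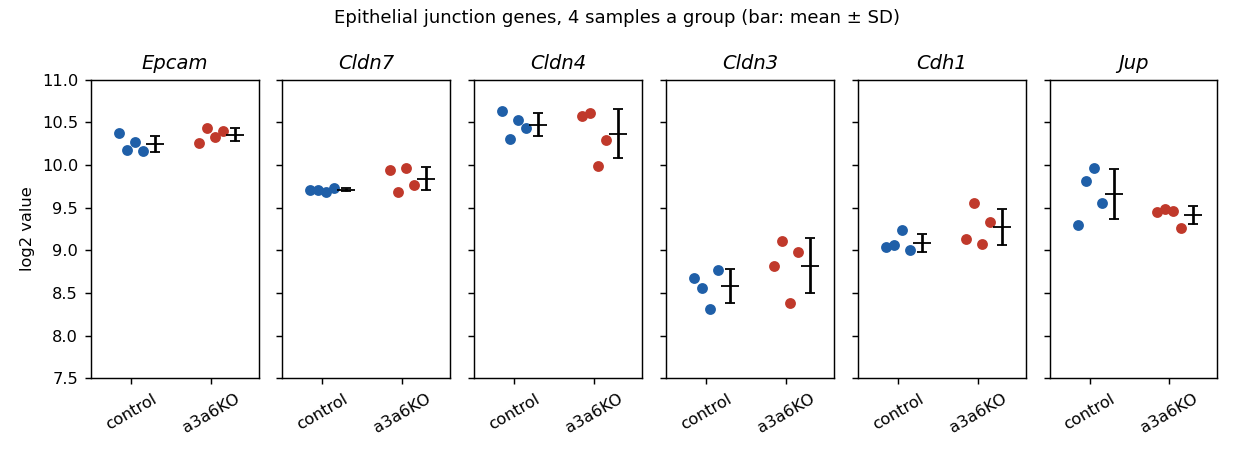
Log2 values of 6 junction genes above background on every array, with each group's 4 samples as points and the mean ± SD beside them; the axis starts at 7.5. Cldn7 lies between 9.68 and 9.96 and Epcam between 10.17 and 10.44 in all 8 samples.

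Desmosome genes gave 3 of the 4 widest spreads between samples of the same group among the members, with pooled SDs of 2.01 for Dsc2, 1.73 for Dsp and 1.24 for Pkp1, beside 1.53 for Cldn5. Dsp, which encodes desmoplakin, the link to keratin filaments, was at 4.49, 9.02, 8.66 and 5.31 in control and 4.82, 4.46, 5.03 and 6.39 in a3a6KO. Dsc2, a desmosomal cadherin, was at 5.14, 9.77, 8.28 and 4.73 in control and 6.82, 5.76, 3.41 and 5.82 in a3a6KO. Pkp1, a plakophilin typical of stratified epithelia, was at 5.32, 8.28, 8.28 and 5.37 in control and 5.78, 5.35, 6.08 and 6.37 in a3a6KO. In all 3 genes control 2 and control 3 were the highest of the 8 samples, while control 1 and 4 lay within the range of the knockout samples, except that control 1 lay just below it in Pkp1. Of the 45 genes, 6 had control values spread over at least 2 log2 units (Dsp, Dsc2, Pkp1, Cldn5, Cldn12 and Patj), which 5.41% of all genes did.

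The means of 6 of 8 desmosome genes were lower in a3a6KO, with a median difference of -0.36, and 0 of the 8 passed. Dsp differed by -1.69 (SE 0.995), Dsc2 by -1.53 (SE 1.15) and Pkp1 by -0.92 (SE 0.716), with exact permutation p-values of 0.257, 0.343 and 0.40. Without control 2 and 3, left out together after their high values were seen, the differences were 0.28, 0.52 and 0.55. The count was then 1 of 8 lower (Evpl), and the median was 0.30. As control 2 and 3 were the highest samples in Dsp, Dsc2 and Pkp1, leaving them out could only raise these differences. Dsp and Pkp1 exceeded background on control 2 and 3 only, and Dsc2 on these and a3a6KO 1, so the sizes are uncertain. The remaining members had smaller differences: Dsg2, the desmoglein of simple epithelia, was between 7.54 and 8.31 in all 8 samples, with a difference of 0.15 (95% interval -0.29 to 0.59). Pkp2 was at 4.38, 5.23, 4.49 and 4.33 in control and 5.13, 4.50, 5.16 and 6.01 in a3a6KO, a difference of 0.59 (-0.15 to 1.33), below background on every array. The envelope proteins periplakin and envoplakin, encoded by Ppl and Evpl, differed by -0.48 and -0.16, and Pkp3 by -0.22.

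Of 11 desmosome genes outside the chosen members, Dsc3, Dsg1a, Dsg1b, Dsg1c, Dsg3 and Perp, 6 in all, had their 2 highest values in control 2 and 3, while Dsc1, Dsg4, Cdsn, Kazn and Tmem65 did not. Of the 11, 6 had lower means in a3a6KO, with a median of -0.68, 0 passed, and 9 exceeded background on 0 arrays. The median was 0.29 without control 2 and 3, a split chosen after the values were seen. Dsg3, a desmoglein of stratified epithelia, was at 2.25, 6.66, 5.18 and 1.94 in control and 2.50, 1.85, 2.65 and 3.27 in a3a6KO. Perp, which encodes a desmosomal membrane protein, was at 6.36, 9.55, 9.18 and 6.59 in control and 6.23, 5.91, 6.44 and 8.21 in a3a6KO. Among those of smallest p, Dsc3 differed by -1.06, Dsg1c by -0.68 and Dsg1b by -1.49. Dsg1b and Dsg1c have near-identical copies that probes may not tell apart.

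Of 14 squamous epithelium genes, a list made after the values were seen, 9 had their 2 highest values in control 2 and 3. Krt10, a keratin of differentiating epidermis, was at 4.59, 11.08, 10.70 and 4.79 in control and 4.24, 4.85, 4.84 and 9.24 in a3a6KO. Krt13, a keratin of moist stratified epithelia, was at 3.35, 10.62, 9.83 and 3.19 in control and 3.43, 3.57, 2.89 and 5.96 in a3a6KO. Both were highest in control 2 and 3, with a3a6KO 4 next, as were Krt1, Sprr1a, Perp, Dsg3, Dsg1b and, among the members, Dsp and Pkp1. Other genes highest in control 2 and 3 did not have a3a6KO 4 next. The next sample was control 4 for Krt15, Klk10 and the member Jup, and a3a6KO 1 for Krt16, Dsg1c and the members Dsc2 and Ppl. It was a3a6KO 2 for Sprr1b, a3a6KO 3 for Dsg1a and control 1 for Dsc3, and Sfn had control 4 and a3a6KO 3 tied. The mean deviation of the 14 genes was 2.12 in control 2, 1.32 in control 3 and -0.01 in a3a6KO 4, and between -0.80 and -0.51 in the other 5. Of the 14, 12 exceeded background on at least 1 array, and Ivl and Lor on 0. Krt5 was at 9.44 and 9.54 in control 2 and 3 and between 4.12 and 7.03 in the other 6 samples. The means of 14 of 15 basal markers and of 6 of 8 desmosome members were lower in a3a6KO. Without control 2 and 3, chosen after the values were seen, the counts were 14 of 15 (median -0.84) and 1 of 8. Without control 4 they were 7 of 15 and 6 of 8. With the mean of Krt5, Krt14 and Krt17 as a covariate, genes that are themselves basal markers, they were 10 of 15 and 3 of 8. The mean deviation of these 3 genes was 1.90 in control 2 and 1.35 in control 3, and at most 0.40 in the other samples. The covariate therefore largely follows the same 2 samples and is no separate check on the desmosome count. The part of squamous or basal cells in the desmosome values was not tested. Dsg3, Perp, Dsg1a and the squamous epithelium genes were named after their values were seen.

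**Figure D4:**
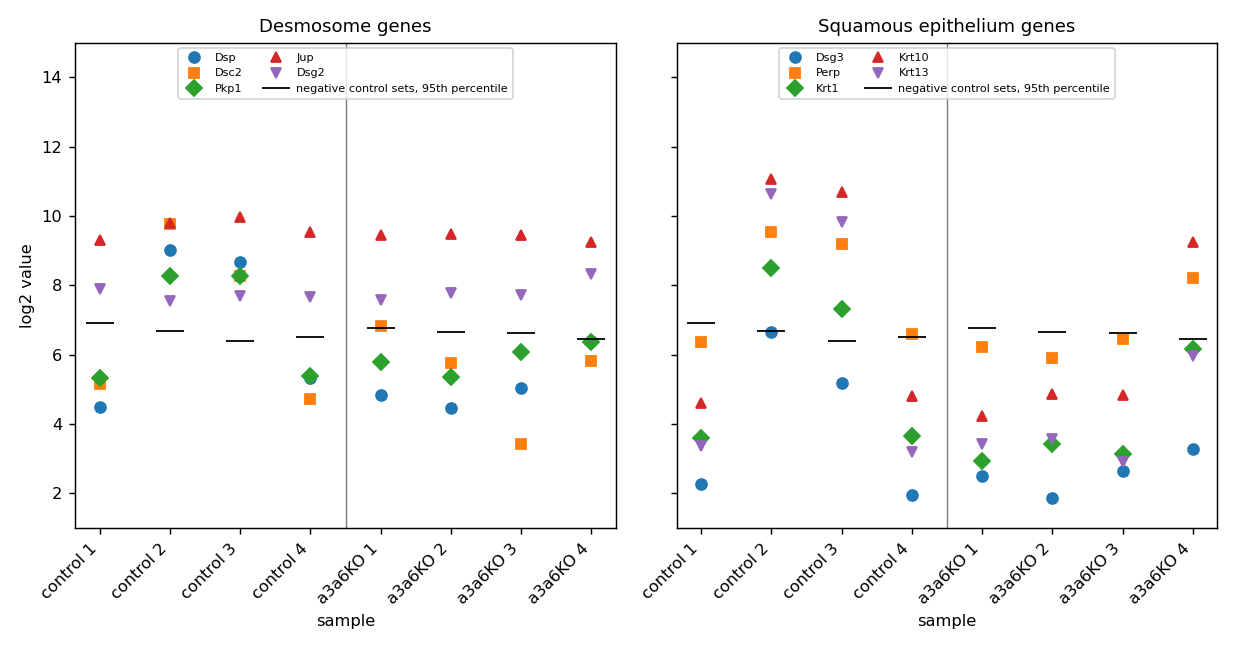
Log2 values by sample of desmosome genes (left) and of genes of stratified squamous epithelia (right), with black dashes at the 95th percentile of each array's negative control sets. Dsp, Dsc2 and Pkp1 are highest in control 2 and 3, as are the 5 genes on the right, while Jup and Dsg2 stay above the dashes on all 8 arrays.

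The promoters of Epcam and Cldn4, whose levels varied little, are set beside that of Dsp, which varied most between control samples among the members after Dsc2. Each is the 250 bases before the RefSeq start in GRCm38.p6, read 5′ to 3′ on the gene's strand. Capitals mark CACCTG or its reverse complement CAGGTG, the E-box that Snai and Zeb repressors of epithelial genes can bind.
Epcam (chr17:87635729-87635978, plus strand): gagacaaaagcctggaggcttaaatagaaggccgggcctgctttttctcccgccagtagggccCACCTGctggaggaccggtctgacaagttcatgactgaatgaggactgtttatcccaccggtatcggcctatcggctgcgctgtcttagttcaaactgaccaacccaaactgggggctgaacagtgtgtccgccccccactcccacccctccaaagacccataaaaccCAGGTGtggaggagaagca
Cldn4 (chr5:134946935-134947184, minus strand): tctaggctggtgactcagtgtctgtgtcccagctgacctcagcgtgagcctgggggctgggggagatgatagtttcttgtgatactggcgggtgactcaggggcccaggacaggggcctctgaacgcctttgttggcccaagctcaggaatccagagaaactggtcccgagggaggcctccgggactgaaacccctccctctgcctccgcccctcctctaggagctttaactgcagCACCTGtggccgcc
Dsp (chr13:38151044-38151293, plus strand): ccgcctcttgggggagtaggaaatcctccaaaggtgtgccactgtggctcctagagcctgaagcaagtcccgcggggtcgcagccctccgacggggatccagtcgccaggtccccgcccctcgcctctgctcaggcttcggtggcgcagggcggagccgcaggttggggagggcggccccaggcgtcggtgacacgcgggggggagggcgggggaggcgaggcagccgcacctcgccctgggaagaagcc
The E-box stood 2 times in the Epcam window, 1 time in that of Cldn4 and 0 times in that of Dsp. The GC box GGGCGG, on either strand, stood 1, 1 and 4 times, and G and C made up 56.4%, 62% and 72.4% of the bases. The table held promoters for 30 of the 46 genes, 49 in all. Of these 49, 32.7% held CACCTG on either strand, as did 17.2% of all 32851 promoters, and 69.4% held GGGCGG, as did 32.7%. The grainyhead core AACNNGTT was in 6.12% and 3.64%, and TATAAA in 14.3% and 12.4%. A match describes the letters only, and the table mixes coding with other genes. Of the repressor genes, Snai1 was at 4.27, 4.16, 4.55 and 5.85 in control and 5.01, 4.24, 3.94 and 4.52 in a3a6KO. Zeb1 was between 2.36 and 3.47 in all 8 samples, below background like Snai1. Snai2 was at 5.39, 5.12, 4.48 and 6.41 in control and 4.70, 4.37, 7.17 and 4.91 in a3a6KO, above background on a3a6KO 3 only.

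**Figure D5:**
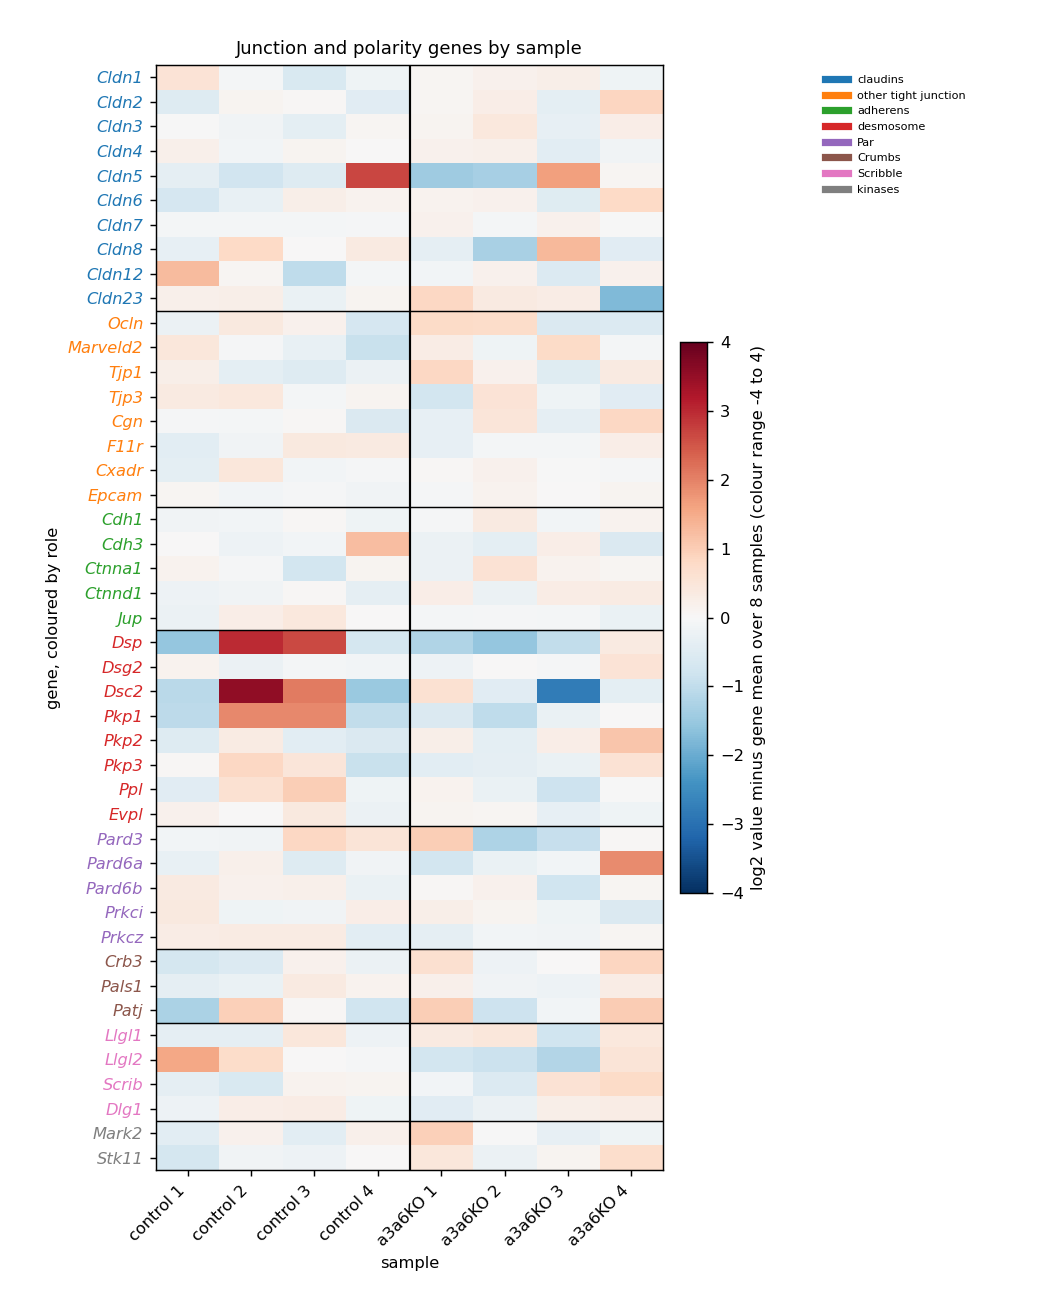
Each gene's log2 value minus its mean over the 8 samples, by sample (columns; the vertical line parts control from a3a6KO) and gene (rows, by role). The strongest colours are Dsp, Dsc2 and Pkp1 in control 2 and 3, Dsc2 in a3a6KO 3, and Cldn5 in control 4.

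The Par complex marks the apical side and holds the atypical protein kinases C. Of its 5 genes 4 had lower means in a3a6KO, with a median difference of -0.24, and 0 passed. Pard3, the scaffold of the complex, was at 6.67, 6.65, 7.62 and 7.31 in control and 7.77, 5.56, 5.85 and 6.82 in a3a6KO. Both its highest and its lowest sample were knockouts, and the difference was -0.56 (95% interval -1.61 to 0.49). Prkci, which encodes the kinase PKC iota, was at 8.38, 7.82, 7.85 and 8.25 in control and 8.20, 8.09, 7.82 and 7.41 in a3a6KO, above background throughout. Prkcz, which encodes the related PKC zeta, was at 5.25, 5.28, 5.28 and 4.51 in control and 4.58, 4.83, 4.81 and 5.03 in a3a6KO, below background on every array. Controls 1, 2 and 3 lay above all knockouts and control 4 below them. The adaptor genes Pard6b and Pard6a differed by -0.24 and 0.39. Pard6a reached 6.76 in a3a6KO 4, against 4.14 to 5.06 in the remaining 7 samples, and its difference was -0.17 without a3a6KO 4.

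The Crumbs complex defines the apical membrane, and the means of its 3 genes were all higher in a3a6KO, with 0 of 3 past the threshold. Crb3, the transmembrane Crumbs protein of mammalian epithelia, was at 4.96, 5.12, 5.83 and 5.42 in control and 6.30, 5.44, 5.66 and 6.51 in a3a6KO. All controls lay below a3a6KO 1 and 4, and the difference was 0.65 (95% interval 0.00 to 1.29, the lower bound being -0.005; exact permutation p = 0.114). Crb3 exceeded background on a3a6KO 4 only. Patj, a scaffold of the complex, was at 4.66, 6.90, 5.99 and 5.15 in control and 6.92, 5.10, 5.84 and 6.94 in a3a6KO, a difference of 0.53 (-0.72 to 1.77). Pals1, which links Crumbs to Patj, was at 6.42, 6.52, 7.15 and 6.92 in control and 7.00, 6.64, 6.57 and 7.08 in a3a6KO, and differed by 0.07.

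The Scribble complex keeps the basolateral membrane distinct, and its genes were split, 2 higher and 2 lower. Llgl2, an epithelial Lgl protein that opposes the Par complex, was at 5.92, 5.09, 4.39 and 4.32 in control and 3.63, 3.49, 3.19 and 4.88 in a3a6KO. All controls lay above a3a6KO 1, 2 and 3, but a3a6KO 4 lay above control 3 and 4. The difference was -1.13 (SE 0.444, 95% interval -2.13 to -0.13), with an adjusted limma p of 0.944 and an exact permutation p of 0.0857. Llgl2 exceeded background on 0 arrays, so the size of its difference is uncertain. Scrib (0.36), Llgl1 (0.22) and Dlg1 (-0.07) had 95% intervals that include 0, and Scrib and Llgl1 lay below background throughout.

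Both polarity kinases had higher means in a3a6KO. Stk11, which encodes LKB1, an upstream kinase of Mark2 and AMPK, was at 8.20, 8.78, 8.71 and 8.91 in control and 9.37, 8.66, 9.01 and 9.62 in a3a6KO. All controls lay below a3a6KO 1, 3 and 4, and 3 of them above a3a6KO 2. The difference was 0.52 (95% interval -0.05 to 1.08, exact permutation p = 0.143), and Stk11 was above background on all 8 arrays. Mark2, the Par-1 kinase of the basolateral side, was at 5.95, 6.55, 5.95 and 6.59 in control and 7.34, 6.36, 6.06 and 6.20 in a3a6KO. It was highest in a3a6KO 1, without which the difference of 0.23 was -0.05.

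Further genes of the same structures were examined in lists of their own, and 0 of any list passed over all genes. Of 29 other tight junction genes 19 had higher means in a3a6KO (median 0.07). An unadjusted limma p under 0.05, which 5.13% of all genes had, was found for 2 higher and 1 lower: Ildr2 (0.46), Magi1 (0.70) and Cldn10 (-0.69). Ildr2 and Cldn10 exceeded background on 0 arrays and Magi1 on 3. Of 21 other adherens junction genes 11 were lower (median -0.05), and 3, all lower, had an unadjusted limma p under 0.05. Of these, Lima1, which encodes the actin-binding protein EPLIN that links alpha-catenin to actin, was at 7.59, 7.07, 7.69 and 5.45 in control and 2.91, 2.62, 4.87 and 4.22 in a3a6KO. All its controls lay above all knockouts, a difference of -3.30 (SE 0.613) with an adjusted limma p of 0.714. Lima1 exceeded background on 3 control arrays and 0 knockout arrays. Ctnnal1 differed by -0.92 and Nectin1, a nectin of adherens junctions, by -0.98, both below background on every array.

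Of 26 other polarity genes 16 were lower (median -0.05), with Pard6g at -0.67, Pals2 at 0.74 and Erbin at 0.35. Pals2 exceeded background on 0 arrays, Pard6g on 4 and Erbin on all 8. Of 9 gap junction genes, which form channels between cells, 6 were lower (median -0.07). Gjb5 was at 4.33, 4.20, 4.20 and 4.23 in control and 3.76, 3.81, 3.68 and 3.71 in a3a6KO, and although the groups did not overlap it lay below background on every array. Of 5 hemidesmosome genes, whose products hold epithelial cells to laminin through integrin alpha 6 beta 4, 3 were lower (median -0.02). Apart from that of Itga6, their 95% intervals included 0, with Itgb4 at 0.07 and Col17a1 at 0.38, both below background on every array. Of 10 regulators of the epithelial state 6 were lower (median -0.02), with the grainyhead gene Grhl3, below background on every array, at -0.57. Of 7 genes of epithelial to mesenchymal transition 4 were higher (median 0.01), among them Vim, highest in a3a6KO 3 (9.02) and control 4 (7.78). The 11 luminal markers had a median difference of 0.01, and 1 of them, Muc1, had an unadjusted limma p under 0.05. Muc1, above background on all 8 arrays, differed by -0.745 with an adjusted limma p of 0.944, and its groups did not overlap. The markers of basal cells (15), fibroblasts (9), leukocytes (10) and adipocytes (7) had median differences of -0.44, -0.01, -0.15 and 0.10. Of the 7 milk protein genes, 0 had a higher mean (median -0.24).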

How the data were processed

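RNA of sorted luminal cells was hybridised to 1 Affymetrix array per sample, after amplification of 500 pg of total RNA, per the labels' protocols. The deposited log2 values were made by the authors with Affymetrix Expression Console and RMA (versions not stated), per the submitters' processing notes, and were tested as deposited. RMA gives the arrays the same distribution, which would hide a change common to most genes. Of 28846 probe sets, 19572 had 1 gene symbol in GEO's platform annotation, 0 had several and 9274 had none. The number of arrays limits the precision.

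Groups were compared with limma 3.58.1 in R 4.3.3 (lmFit, eBayes, group as the only term, 8 samples, two-sided) over 19505 genes with Benjamini-Hochberg adjustment, checked on simulated data. Exact permutation tests used the 70 assignments of samples, so the smallest p is 0.0286. The samples are biological replicates per the series design. The members and lists were chosen with earlier results of these data known. Values by sample were given for the 6 members of smallest p in each direction and for the main members of each role, and up to 3 genes of smallest p of each other list were named, with others as marked.

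Alternatives left out single samples, dim genes or pairs of samples, used a replicate block, array centring, quantile normalization, the mean over a gene's probe sets, a trended robust prior, array weights or the mean of Krt5, Krt14 and Krt17 as a covariate. Same-numbered samples did not deviate together (correlations over genes of 0.0315, 0.0395, -0.0533 and -0.0606). Such values cannot show whether same-numbered samples were handled together.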

Additional observations from a re-analysis of the deposited data

Results flagged for a closer look

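In 8 of 90 groups of 4 values (45 genes in both groups), 1 sample lay far from the other 3. Among independent normal values about 1 in 20 would do so. These genes share the same 8 arrays, and the share over all genes was not counted. Cldn5 was at 7.06 in control 4, with the nearest control at 4.02, and Cdh3 was at 5.98 in control 4, with the nearest at 4.77. Prkcz was at 4.51 in control 4, below the nearest at 5.25, so 3 of these 8 values belonged to control 4. Pard6b was at 5.93 in a3a6KO 3 (nearest 6.77), and Llgl1 was at 2.71 in the same sample (nearest 3.86). Jup was at 9.26 in a3a6KO 4, with the nearest at 9.45, and Pkp3 was at 6.87 there, above the nearest at 6.03. Ctnnd1 was at 6.29 in a3a6KO 2, below the nearest at 6.78.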

How the results depend on the processing

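Of the 45 genes 0 passed in the reported fit and in each of 18 alternatives (smallest adjusted limma p 0.786), and their median difference lay between -0.0017 and 0.15. Over all genes, limma called 0 (1000 at an unadjusted p under 0.05), and 0 with a trended robust prior (993). With the basal keratin covariate it called 1, Irgm1 (-2.81, adjusted p = 0.0481, and 0.946 without the covariate); the cause was not tested. With the replicate block 0 genes were called and the median difference was 0.07. Leaving out dim genes left 21 members (median 0.14). Leaving out single samples gave 0 calls and medians of -0.0017 to 0.12.

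Signs changed in 20 of 45 genes under some alternative, none of them called, and 0 changed under array centring, quantile normalization, array weights, the trended robust prior, the mean of probe sets or the block. With the basal keratin covariate, the differences were -0.20 for Cldn1, 0.32 for Cldn8, 0.13 for F11r, 0.57 for Dsp, 0.63 for Pkp1, 0.31 for Pkp3 and 0.32 for Dlg1. Without control 2 and 3 together, chosen after seeing the data, they were -0.12 for Cldn1, 0.28 for Dsp, 0.52 for Dsc2, 0.55 for Pkp1, 0.32 for Pkp3, 0.0725 for Ppl and 0.16 for Dlg1. Without control 4 and a3a6KO 3, also chosen later, they were 0.0033 for Cldn4, -0.0267 for Marveld2 and 0.0067 for F11r. Over the fits that left out 1 sample each, the signs of these genes changed: Cldn1 (-0.0325 to 0.35), Cldn12 (-0.50 to 0.26), Cldn23 (-0.43 to 0.43), Cldn4 (-0.188 to 0.0183), Cldn5 (-1.14 to 0.29), Cxadr (-0.0567 to 0.22), Dlg1 (-0.189 to 0.0675), Dsg2 (-0.0017 to 0.24), F11r (-0.255 to 0.0183), Mark2 (-0.0533 to 0.37), Ocln (-0.0492 to 0.39), Pals1 (-0.0408 to 0.20), Pard6a (-0.17 to 0.70) and Pkp3 (-0.561 to 0.0092). Signal over background limits the 10 members below background on every array.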
